A study of Mus musculus with 60 samples.

Results

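Microglia of AD mice at 12 months were compared with microglia of AD mice at 6 months, gene by gene. The genes described are those of at least 0.5 FPKM (fragments counted per kilobase of a gene and scaled to the size of the library) in either group, which left 13362 of the 35999 genes in the table. Of these, 12236 reached the minimum at both ages, 636 reached it only at 12 months and 490 only at 6 months, so that the last 2 sets had to differ in a fixed direction. Cldn3 lay just inside the minimum, at 0.5002 FPKM at 6 months, and Tbc1d24 just outside, at 0.49990 FPKM at 12 months.

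Both groups carried the same alleles, APPswe/PS1-delta=E9, a pair of transgenes (mutant APP and a presenilin 1 that lacks an exon) under the prion protein promoter, from which the mice form amyloid plaques in the brain. All AD groups carry both transgenes, and the WT groups are C57BL/6 littermates without them. Microglia were sorted from whole brains with the meninges removed, by CD11b and low to intermediate CD45 on the surface, at 2, 4, 6, 9 and 12 months, and astrocytes by ACSA2. By the labels there are 20 groups and 3 libraries in each. The table holds a single FPKM value per gene and group, so the values have no error, no number of replicates and no test, and "higher" and "lower" compare group values only.

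Microglia are the resident macrophages of the brain. In the healthy brain they survey the tissue and express homeostatic genes such as P2ry12 and Tmem119. Around amyloid plaques, mouse microglia take on a state called disease-associated microglia (DAM), in which genes for lipid uptake, lysosomal digestion and phagocytosis increase, in part through the receptor Trem2 and its adaptor Tyrobp. Microglia can also respond to interferon, present antigen on MHC class II and secrete cytokines and chemokines. APPswe/PS1-delta=E9 mice have few plaques at the younger of the ages compared and many at the older.

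The marker genes fitted the microglia label at both ages. The 10 microglia markers summed to 27818 FPKM at 6 months and 27434 FPKM at 12 months, against 173 and 134 FPKM for 10 astrocyte markers and under 1 FPKM for neurons. The steps of the lowest FPKM values gave 14.5, 17.6 and 17.8 M fragments for the libraries at 6 months and 15.1, 15.2 and 15.2 M at 12 months. At that depth a gene of 1000 bases at 0.5 FPKM rests on about 24.9 fragments over the libraries at 6 months and 22.8 at 12 months. FPKM was divided by a size factor (0.973 at 6 months and 0.972 at 12 months), 0.1 was added and log2 taken. Genes with a log2 fold change above 0.5 are called higher at 12 months and those below -0.5 lower.

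By that threshold 1421 genes (10.6%) were higher at 12 months and 782 (5.85%) were lower, and 564 (4.22%) and 282 (2.11%) were beyond 1 and -1. The median gene did not move (log2 fold change -0.0034), and 90% of the genes lay between -0.56 and 0.91. Beside it, the same ages in WT microglia put 28.1% of 14261 genes higher and 28.6% lower, and those in AD astrocytes put 6.17% of 15035 genes higher and 4.84% lower. The WT 12-month column had the steps of 2 libraries, of 18.1 and 19.2 M fragments, although the labels name 3, and the AD 4-month column, used in the age series and in the counts over 5 ages and 10 groups, may rest on 2 as well. The shares of 10.6% higher and 5.85% lower stand as the background of every list count in AD microglia. Whether the comparisons differ was not tested, as that needs values per library.

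Genes of the basic machinery separated these comparisons. Among 173 genes of the respiratory chain, the proteasome, the vacuolar proton pump, chromatin and splicing, 1 passed the threshold between 6 and 12 months in AD microglia (median 0.02), where 16.5% of all genes passed it either way, and 136 did so in WT microglia, where 56.7% did. In WT, 44 of 49 respiratory chain genes and 27 of 29 proteasome genes were lower at 12 months, and 41 of 47 chromatin regulators were higher. In genes such as Cox4i1 and Ash1l, WT at 6 months stood beside the 2 AD groups and all other microglia groups stood apart. Cox4i1 was 310 and 395 FPKM in AD at 6 and 12 months, 304 FPKM in WT at 6 months and 138 to 173 FPKM elsewhere. Ash1l was 3.47, 2.97 and 2.50 FPKM in the same order, and 5.88 to 8.47 FPKM elsewhere. In such genes, WT fold changes, 9-month values and ranks among the 10 groups also carry this difference. The AD groups of 6 and 12 months were alike in the 173 genes. This pair was chosen with that shared difference known, so the likeness followed from the choice and is no separate result. Scaling by size factors holds the median of all genes near 0. The median was -0.09 in WT microglia too, so it does not set these comparisons apart. Machinery outside these 173 genes leaned higher at 12 months. Above 0 were 43 of 44 cytosolic ribosomal protein genes (median 0.38) and all 13 mitochondrially encoded genes (median 0.45), of which 39 and 10 lay within the threshold.

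**Figure D1:**
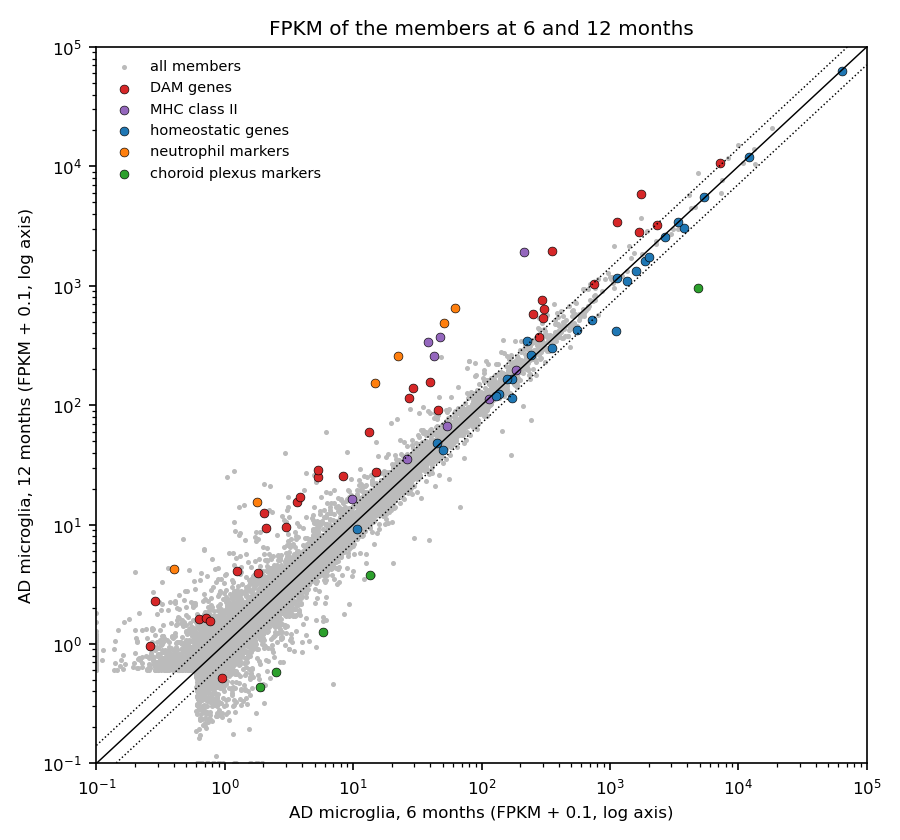
FPKM (plus 0.1) at 6 months on the x axis and at 12 months on the y axis, both log axes, 1 point per gene for the 13362 genes. The solid line marks equal values and the dotted lines a log2 difference of 0.5 before size factors. All 6 neutrophil markers, 30 of 34 DAM genes and 5 of 9 MHC class II genes were called higher, 21 of 25 homeostatic genes lie within the threshold, and all 5 choroid plexus markers were lower.

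The DAM genes had the highest median of the 36 lists that are not markers of other cell types. Of 34 measured members of the 35 listed, 30 were higher, 1 was lower and 3 lay within the threshold, with a median log2 fold change of 1.60, where 10.6% of all genes were higher. Gpnmb and Dkk2 passed the minimum only at 12 months and so had to be higher, and Postn, the lower one, passed it only at 6 months. In 29 of the 34 genes, AD 12 months was the highest of the 10 microglia groups, against 15.7% of all genes. Levels higher at each age than at the age before, from 2 to 12 months, were seen in 7 of 34 against 0.988% of all genes. The DAM list rests on published plaque studies of mice, and DAM genes were known to be high in these samples when it was chosen.

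Cst7, which encodes cystatin F, an inhibitor of lysosomal cysteine proteases, stood at 11.2, 26.1, 352, 708 and 1951 FPKM in AD microglia of 2, 4, 6, 9 and 12 months. In WT microglia the same gene was 10.2, 14.7, 25.3, 17.3 and 11.8 FPKM. The AD values thus climbed at every age while the WT values did not, and the log2 fold change from 6 to 12 months was 2.47 in AD and -1.16 in WT. Clec7a, the beta-glucan receptor dectin-1, was 28.9 FPKM at 6 months, 54.3 at 9 and 139 at 12 (log2 fold change 2.26), with 6.23, 5.58 and 7.30 FPKM in WT. Itgax, the integrin CD11c by which plaque-associated microglia are often stained, was 3.79, 9.22 and 17.0 FPKM at those ages in AD (2.14). Both genes stayed under 8 FPKM in every WT group.

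Several secreted or surface proteins of the DAM state were higher too. Spp1, the secreted phosphoprotein osteopontin, was 27.2 FPKM at 6 months and 115 FPKM at 12 months (log2 fold change 2.08), with 11.0 and 9.57 FPKM in WT. Axl, a receptor tyrosine kinase that binds apoptotic cells through Gas6, was 5.20 and 25.2 FPKM (2.26). Lgals3, the galactoside-binding lectin galectin-3, was 8.29 and 25.6 FPKM (1.62). Gpnmb, a lysosomal and cell surface glycoprotein of phagocytes, was low throughout, at 0.188 FPKM at 6 months, 0.570 at 9 and 2.18 at 12. Csf1, the ligand of the microglial survival receptor Csf1r, was 2.91 FPKM at 6 months, 15.1 at 9 and 9.46 at 12 (1.67), so its highest value was not at 12 months. Igf1, an insulin-like growth factor, likewise was 0.530, 1.83 and 1.53 FPKM at those ages.

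The receptor arm of the DAM state moved less than its target genes. Tyrobp, the signalling adaptor of Trem2, was 7233 FPKM at 6 months and 10732 FPKM at 12 months (log2 fold change 0.57, and 0.48 after quantile normalization, which is within the threshold). Trem2 itself was 753 and 1031 FPKM (0.46, within the threshold). In both, AD 12 months was the highest of the 10 microglia groups. Of 26 genes of Trem2 signalling and Alzheimer risk, 3 were higher (Ms4a4a, Apoe and Tyrobp) and Clu was lower, with a median of 0.07. That is close to the shares of all genes that were higher (10.6%) and lower (5.85%). Ms4a4a, a membrane protein of the cluster that holds an Alzheimer risk locus in humans, was 0.484 FPKM at 6 months and 2.79 FPKM at 12 months (2.31), and passed the minimum at 12 months alone.

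**Figure D2:**
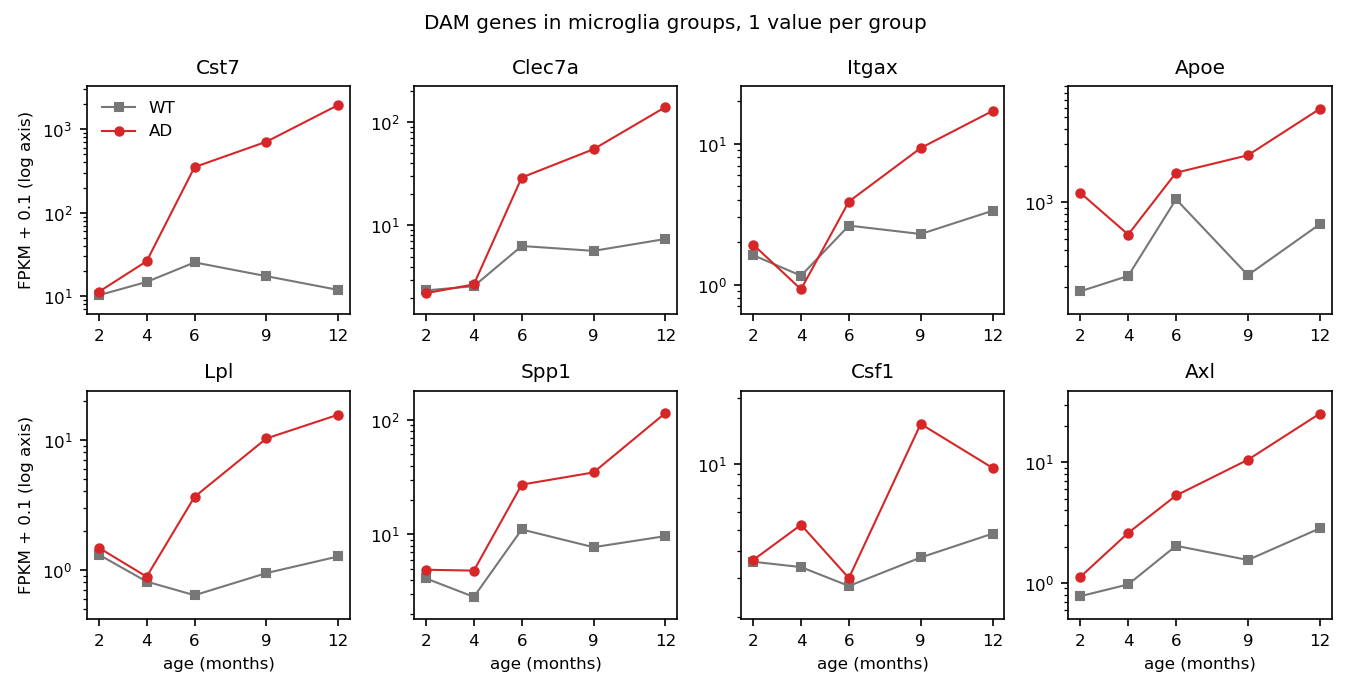
FPKM (plus 0.1, log axis) of 8 DAM genes against age in months, with 1 value per group, AD microglia as red circles and WT microglia as grey squares. Cst7 climbed from 11.2 to 1951 FPKM in AD and stayed between 10.2 and 25.3 FPKM in WT, and Csf1 peaked at 9 months.

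Lipid genes split between a few large differences and an unmoved majority. Of 25 genes of lipid transport and storage, 8 were higher and none lower (median 0.12), where 10.6% of all genes were higher. The 25 include 3 that passed the minimum at 12 months alone. Apoe, the main apolipoprotein of the brain, was 1749 FPKM at 6 months and 5872 FPKM at 12 months (log2 fold change 1.75), against 1057 and 657 FPKM in WT. Lpl, the lipoprotein lipase, was 3.54 and 15.5 FPKM (2.10). The fatty acid binding proteins Fabp5 and Fabp3 were 5.24 and 28.6 FPKM (2.43) and 5.04 and 22.6 FPKM (2.15). Ch25h, which makes 25-hydroxycholesterol, was 1.93 FPKM at 6 months, 11.5 at 9 and 12.3 at 12 (2.62). In WT, Ch25h stayed between 0.897 and 1.65 FPKM. Of 21 genes of cholesterol and fatty acid synthesis, 4 were higher and none lower, where 10.6% of all genes were higher. The 4 include 1 that passed the minimum at 12 months alone. One of the higher genes was Cyp51, a sterol demethylase (3.05 and 5.35 FPKM, 0.79).

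Of 15 cathepsins, legumain and cystatins, 4 were higher (median 0.34), against 10.6% of all genes. They were Ctsb, Ctsl, Ctse and the inhibitor Cst7, which is also a DAM gene. Ctsb was 1417 FPKM at 6 months and 2157 FPKM at 12 months (log2 fold change 0.61, and 0.40 after quantile normalization), Ctsl 326 and 572 FPKM (0.81), and Ctsd, the aspartic protease of the lysosome, 8391 and 11740 FPKM (0.49, within the threshold). Ctse, a non-lysosomal aspartic protease, was 0.409 and 2.69 FPKM (2.46), and passed the minimum at 12 months alone. In AD astrocytes Ctse differed as much, at 0.354 FPKM at 6 months and 2.44 FPKM at 12 months (2.46). Of 30 lysosomal membrane proteins and hydrolases, 5 were higher: Gla, Cd63, Npc2, Man2b1 and Gusb, from 0.51 to 1.10 on the log2 scale, against 10.6% of all genes. After quantile normalization Npc2 (0.49) and Man2b1 (0.42) were within the threshold. None of the 15 proton pump subunits passed the threshold. Cd63, a tetraspanin of late endosomes, was 299 and 540 FPKM (0.86). The lysosomal genes thus differed singly, while the pump that acidifies the organelle did not pass.

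MHC class II held the largest fold changes among the lists of MHC, interferon, cytokine and chemokine genes. Cd74, the invariant chain that occupies the peptide groove during assembly, was 64.1, 51.3, 213, 105 and 1917 FPKM in AD microglia of 2, 4, 6, 9 and 12 months, and 49.9, 70.9, 265, 114 and 134 FPKM in WT. H2-Aa, the alpha chain of I-A, was 38.0 FPKM at 6 months, 12.0 at 9 and 337 at 12 in AD, and 54.4, 17.5 and 12.9 FPKM in WT. The AD 12-month group therefore stood far above every other microglia group, and the 9-month AD group was not intermediate. H2-Ab1 was 47.6 FPKM at 6 months and 373 FPKM at 12 months, and H2-Eb1 42.3 and 256 FPKM. The log2 fold changes were 3.17 for Cd74, 3.15 for H2-Aa, 2.97 for H2-Ab1 and 2.60 for H2-Eb1. In WT microglia the same fold changes were -1.05, -2.13, -2.73 and -2.06.

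The genes that load peptide onto class II molecules did not go along. H2-DMa was 184 FPKM at 6 months and 197 FPKM at 12 months (log2 fold change 0.10), H2-DMb1 115 and 113 FPKM (-0.02), and H2-Oa and H2-Ob were within the threshold, while H2-DMb2 was 9.74 and 16.4 FPKM (0.75). In all, 5 of 9 measured class II genes were higher and none lower (median 0.75), where 10.6% of all genes were higher. Ciita, the activator of class II transcription, was under the minimum, at 0.0859 and 0.348 FPKM. Macrophages at the borders of the brain also carry MHC class II, and 3 of their 6 markers reached the minimum. Pf4 (4.76 and 11.9 FPKM) and Ms4a7 (0.339 and 1.88 FPKM) were higher, and the other was within the threshold (0.13). Ms4a7 passed the minimum at 12 months alone, so its direction was fixed. All 6 markers together summed to 6.08 FPKM at 6 months and 15.5 FPKM at 12 months. In WT microglia the sum was 12.9 FPKM at 6 months and 6.33 FPKM at 12 months, and Cd74 was 265 and 134 FPKM. The part of these cells in the class II values was not tested, and in bulk samples fewer cells of a type and less RNA per cell cannot be told apart.

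The promoters of 2 class II genes are printed because both genes were higher at 12 months and both windows hold the Y box, one of the conserved boxes to which class II regulators bind. Each run is the RefSeq window from 250 bases before to 50 after the start of the gene, on build GRCm38.p6 and in the direction of the gene. Capitals mark CTGATTGG, searched on both strands. The H2-Aa window is chr17:34287774-34288073 (minus strand) with the box from base 200, and the H2-Eb1 window is chr17:34305617-34305916 (plus strand) with the box from base 189.
H2-Aa: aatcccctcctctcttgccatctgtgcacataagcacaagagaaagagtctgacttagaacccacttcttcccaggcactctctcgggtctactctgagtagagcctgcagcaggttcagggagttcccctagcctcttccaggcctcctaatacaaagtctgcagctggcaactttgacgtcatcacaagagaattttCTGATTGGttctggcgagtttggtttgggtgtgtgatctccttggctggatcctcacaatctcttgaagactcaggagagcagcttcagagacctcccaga
H2-Eb1: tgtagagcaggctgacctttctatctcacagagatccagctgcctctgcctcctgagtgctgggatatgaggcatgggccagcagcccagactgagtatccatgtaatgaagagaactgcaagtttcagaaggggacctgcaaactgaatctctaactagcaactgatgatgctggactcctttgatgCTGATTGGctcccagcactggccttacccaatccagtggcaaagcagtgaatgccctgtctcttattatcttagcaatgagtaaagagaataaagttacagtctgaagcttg
The box stood in 2 of the 3 higher class II genes with a window, in 6.74% of the 8962 genes of this comparison with a window and in 4.70% of all 27025. A match describes these letters and is not a binding site.

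MHC class I was higher in 8 of 14 genes and with a median of 0.67, where 10.6% of all genes were higher. As a list it was thus close to class II (5 of 9, median 0.75), but its largest fold change was smaller (2.08 against 3.17). B2m, the light chain of all class I molecules, was 10040 FPKM at 6 months and 15223 FPKM at 12 months (log2 fold change 0.60, and 0.45 after quantile normalization). The classical heavy chains H2-K1 and H2-D1 were 181 and 348 FPKM (0.95) and 365 and 704 FPKM (0.95). The Qa genes H2-Q6 and H2-Q7 were 2.68 and 11.6 FPKM (2.08) and 1.08 and 4.52 FPKM (1.98), but near-identical copies of these genes can share reads, so their split is uncertain. The peptide pump and its helpers, Tap1, Tap2 and Tapbp, and the immunoproteasome subunits Psmb8 and Psmb9 were all within the threshold.

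**Figure D3:**
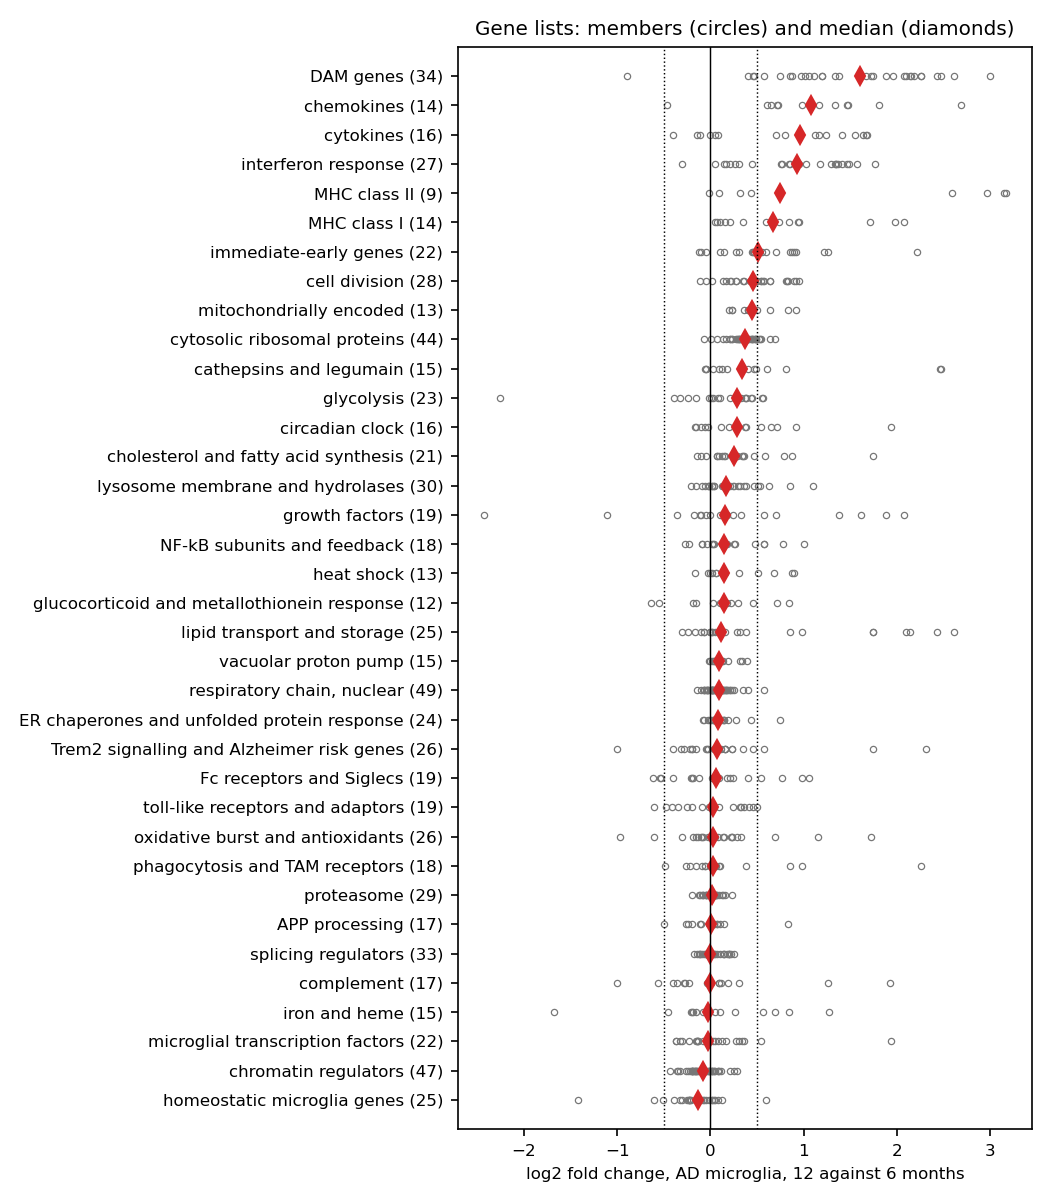
Log2 fold change of 12 against 6 months for each measured gene (circles) of 36 lists, with the list median (diamonds) and the number of genes in parentheses. Dotted lines mark the threshold of 0.5 either way. The DAM median is 1.60, the chemokine median 1.08, and the proteasome and chromatin genes all lie between the dotted lines.

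Of 27 measured interferon response genes, 19 were higher and none lower, with a median of 0.93, where 10.6% of all genes were higher, and 3 of the 27 passed the minimum only at 12 months. In 20 of the 27, AD 12 months was the highest of the 10 microglia groups, against 15.7% of all genes. Ifi27l2a, a small interferon-induced protein, was 79.1 FPKM at 6 months, 51.1 at 9 and 235 at 12 (log2 fold change 1.57), with 92.7, 43.6 and 33.9 FPKM in WT. Ifitm3, which restricts virus entry at membranes, was 89.6 FPKM at 6 months and 227 FPKM at 12 months (1.34), and it was already 183 FPKM at 4 months. Ifit3, an RNA-binding antiviral protein, was 11.5 and 21.9 FPKM (0.93), and Isg15, a ubiquitin-like modifier, 10.6 and 17.96 FPKM (0.75). The sensor Ifih1, which detects viral RNA, lay within the threshold (0.17). Cxcl10, an interferon-induced chemokine, was 6.49 FPKM at 6 months and 18.1 FPKM at 12 months (1.47), but 6 months was the lowest AD value and WT 12 months stood at 18.5 FPKM.

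The promoters of 3 of these genes are printed because they show the interferon-stimulated response element (ISRE), in windows of the same extent and build as above. Capitals mark GAAA, 2 bases of any kind and GAAA again, on either strand, and overlapping matches run together. Cxcl10 is at chr5:92348840-92349139 (minus strand), Isg15 at chr4:156200769-156201068 (minus strand) and Ifit3 at chr19:34583279-34583578 (plus strand).
Cxcl10: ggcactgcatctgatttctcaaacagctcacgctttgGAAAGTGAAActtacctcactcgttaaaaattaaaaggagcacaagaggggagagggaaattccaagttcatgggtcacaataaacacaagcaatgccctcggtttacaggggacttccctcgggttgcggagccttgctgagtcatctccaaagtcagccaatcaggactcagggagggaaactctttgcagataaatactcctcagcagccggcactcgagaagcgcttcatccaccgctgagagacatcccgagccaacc
Isg15: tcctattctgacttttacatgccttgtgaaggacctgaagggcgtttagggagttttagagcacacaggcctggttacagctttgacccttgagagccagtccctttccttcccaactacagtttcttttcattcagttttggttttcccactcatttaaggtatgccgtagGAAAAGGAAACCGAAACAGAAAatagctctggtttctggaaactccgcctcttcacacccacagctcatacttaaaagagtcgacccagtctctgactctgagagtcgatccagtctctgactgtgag
Ifit3: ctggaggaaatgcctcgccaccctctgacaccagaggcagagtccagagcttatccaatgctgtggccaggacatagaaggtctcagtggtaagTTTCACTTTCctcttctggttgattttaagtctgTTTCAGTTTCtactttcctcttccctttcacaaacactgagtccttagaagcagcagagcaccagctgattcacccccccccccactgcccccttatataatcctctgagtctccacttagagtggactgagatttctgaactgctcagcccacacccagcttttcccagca
The element occurred once in the Cxcl10 window, 3 times in that of Isg15 and 2 times in that of Ifit3. It stood in 10 of the 14 higher interferon genes with a window (71.4%), in 3.92% of the genes of this comparison with one and in 3.99% of all 27025. The list holds genes known for answering interferon, so the share describes the list. The same element was in 2 of the 22 higher DAM genes with a window (9.09%). The PU.1 element GAGGAAGT, named for the myeloid factor that binds it, was in 1 of those 22, against 4.05% of the genes of this comparison. The AP-1 element TGANTCA (N for any base) was in 5 of the 22 (22.7%), against 5.97% of the genes of this comparison. Genes below -1 with at least 5 FPKM held it as often, in 6 of 26 with a window (23.1%).

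Chemokines and cytokines were higher at 12 than at 6 months in 13 of 14 and 10 of 16 measured genes, with medians of 1.08 and 0.96 and none lower, where 10.6% of all genes were higher. One of the cytokines passed the minimum at 12 months alone. Ccl3 and Ccl4, which attract monocytes and T cells, were 1084 and 2141 FPKM (log2 fold change 0.98) and 1746 and 3682 FPKM (1.08). For both genes 6 months was the lowest AD value, and WT microglia of 6 months stood at 1764 and 3179 FPKM. Ccl6, a chemokine of the DAM list, was 298 and 754 FPKM (1.34), the highest of the 10 groups. Cxcl1 and Cxcl2, which attract neutrophils, were 0.702 and 5.04 FPKM (2.69) and 2.91 and 10.5 FPKM (1.81). In WT microglia of 6 months Cxcl1 was 2.15 FPKM and Cxcl2 5.94 FPKM, above the AD values of that age. Tnf was 68.0, 152, 80.5, 291 and 235 FPKM in AD microglia of 2, 4, 6, 9 and 12 months, and 59.7, 99.2, 361, 297 and 190 FPKM in WT. Il1b, the secreted interleukin 1 beta, was 52.6, 102, 76.4, 195 and 203 FPKM in AD and 55.0, 56.9, 235, 211 and 156 FPKM in WT.

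For Tnf and Il1b the 12-month AD level was thus below that of WT microglia at 6 months, and the fold change of 12 against 6 months (1.55 and 1.41) started from a 6-month AD level under that of WT at the same age. Of the 16 cytokines, AD 12 months was the highest of the 10 groups in 5. Tnfsf8, the ligand of CD30, was 2.44 and 8.01 FPKM in AD and 3.21 and 7.95 FPKM in WT, so both genotypes were higher at 12 months.

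Immediate-early genes, which many stimuli including cell isolation induce, moved with these genes. Of 22, 12 were higher and none lower (median 0.51), and AD 12 months was the highest of the 10 groups in none of them. Dusp2, a phosphatase of MAP kinases, was 5.01 FPKM at 6 months, 15.5 at 9 and 23.6 at 12 (log2 fold change 2.22), with 16.6, 23.9 and 20.1 FPKM in WT. Atf3 was 282 and 532 FPKM (0.92), and 607 and 596 FPKM in WT. Among 18 NF-kB subunits and feedback genes, 4 were higher, all of them feedback genes: Nfkbiz, Tnfaip3, Nfkbia and Zfp36. After quantile normalization Nfkbia (0.38) and Zfp36 (0.39) were within the threshold, and 10.6% of all genes were higher. The part of cell isolation in the cytokine and chemokine values was not tested.

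**Figure D4:**
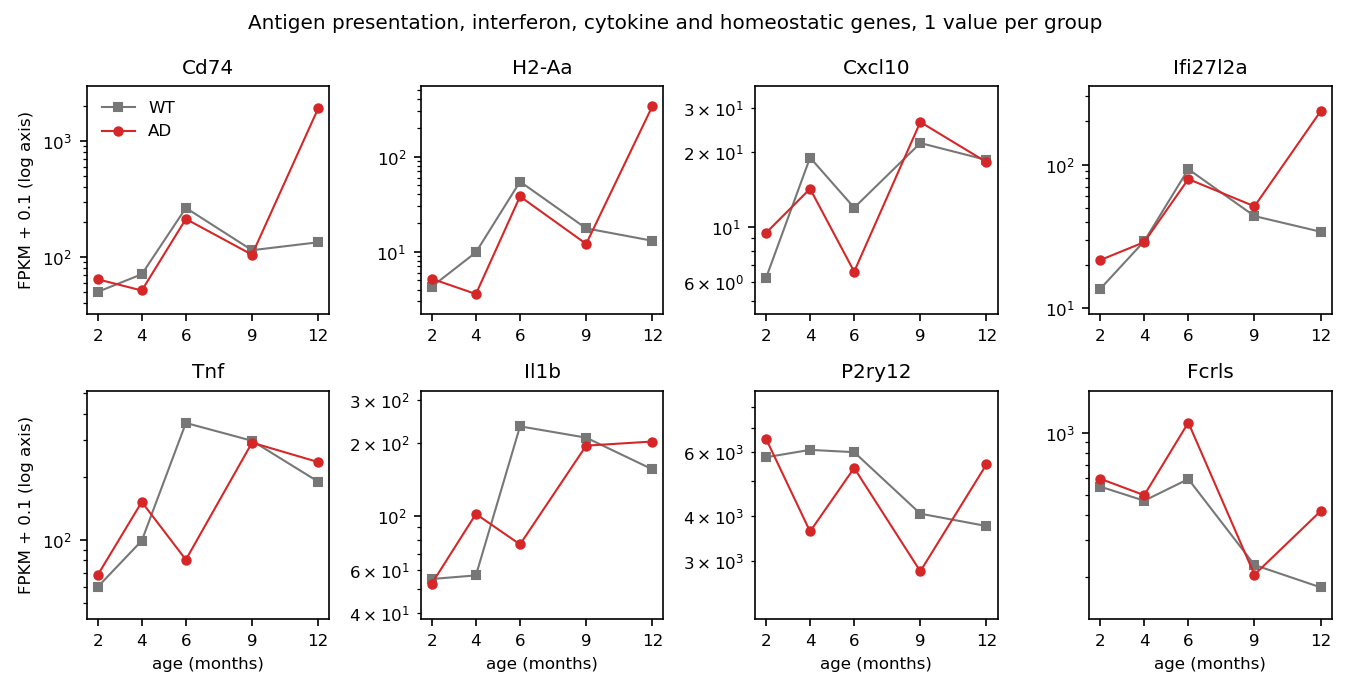
FPKM (plus 0.1, log axis) of 8 genes of antigen presentation, interferon response, cytokines and homeostasis against age in months, with 1 value per group, AD microglia as red circles and WT microglia as grey squares. Cd74 and H2-Aa reached 1917 and 337 FPKM in AD at 12 months, Tnf in WT peaked at 6 months, and Fcrls in AD peaked at 6 months.

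Most homeostatic genes differed little, with a lean to lower values. Of 25, 21 lay within the threshold, close to the share of all genes, of which 16.5% passed it either way. Lower were 3, where 5.85% of all genes were lower, and 1 was higher, where 10.6% were. The median was -0.14, and 7 of the 25 had a log2 fold change above 0. P2ry12, the purinergic receptor of process movement, was 5419 FPKM at 6 months and 5547 FPKM at 12 months (log2 fold change 0.04), and Cst3, the most abundant gene, 64800 and 62624 FPKM (-0.05). Tmem119 was 3767 and 3037 FPKM (-0.31), and the fractalkine receptor Cx3cr1 was 1591 and 1339 FPKM (-0.25). The 3 lower genes were Fcrls, Txnip and Olfml3, of which Olfml3 (-0.51) was at the edge of the threshold. Fcrls, which encodes a receptor-like scavenger protein, stood at 1118 FPKM at 6 months and 416 FPKM at 12 months (-1.42), and 204 FPKM at 9 months. In WT it was 595, 228 and 177 FPKM at 6, 9 and 12 months (-1.81 for 12 against 6), so a lower Fcrls was seen in both genotypes. In WT microglia 16 of the 25 genes were lower at 12 months (median -0.70), beside the 28.6% of all genes that were lower there.

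Of 17 complement genes, 13 lay within the threshold, 2 were higher (C3 and C4b) and 2 lower (Clu and Cd59a). Their median was near 0, and among all genes 10.6% were higher and 5.85% lower. Both higher genes passed the minimum at 12 months alone, so their direction was fixed. C1qa was 10921 FPKM at 6 months and 10625 FPKM at 12 months (log2 fold change -0.04), and C1qb 13423 and 10461 FPKM (-0.36, and -0.68, lower by the threshold, after quantile normalization). C3, the central component, was 0.150 and 0.842 FPKM (1.92). Clu, the chaperone clusterin, which choroid plexus cells express strongly, was 33.7 and 16.7 FPKM (-1.01). The genes of APP processing were level apart from Aplp2, a homologue of APP, at 21.2 and 37.9 FPKM (0.84). App was 58.4 and 58.6 FPKM, and Prnp, whose promoter drives both transgenes, was 14.2 and 13.1 FPKM (-0.11).

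Of 15 genes listed under iron and heme, 4 were higher and 1 was lower, where 10.6% and 5.85% of all genes were. The 4 include 1 that passed the minimum at 12 months alone. The ferritin chains Fth1 and Ftl1 were 4897 and 8771 FPKM (log2 fold change 0.84) and 1928 and 2853 FPKM (0.57, and 0.29 after quantile normalization). The lower one, Hpgd, degrades prostaglandins and handles no iron, and it was 241 FPKM at 6 months and 75.3 FPKM at 12 months (-1.68), against 56.7 and 168 FPKM in WT, the opposite order. Cybb, the catalytic subunit of the phagocyte NADPH oxidase, was 1.15 FPKM at 6 months, 3.59 at 9 and 4.02 at 12 (1.73), and 0.357 to 1.08 FPKM in WT. Neutrophils also express Cybb. Of 26 genes of the oxidative burst and its antioxidants, 3 were higher and 2 lower, shares close to those of all genes (10.6% and 5.85%).

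Cell division genes were low but tended to one side. Of 28, 13 were higher and none lower (median 0.46), where 10.6% of all genes were higher. The 28 include 5 that passed the minimum at 12 months alone. Cdk1, the mitotic kinase, was 2.47 FPKM at 6 months and 4.48 FPKM at 12 months (log2 fold change 0.84), and Birc5 (survivin) 1.55 and 2.79 FPKM (0.81). Mki67, the proliferation marker, was 0.426 and 0.665 FPKM (0.54), and passed the minimum at 12 months alone, so its direction was fixed. In WT microglia of 12 months it was 0.826 FPKM, above the AD value. Precursors of neutrophils divide as well, and neutrophil markers differed between these ages, as given next. Their part in the division genes was not tested.

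Markers of 2 other cell types had larger medians than any microglial list, 3.37 for neutrophils and -2.12 for the choroid plexus. In WT microglia of the same ages both went the same way, with medians of 4.34 and -5.00. All 6 neutrophil markers were higher at 12 months, with a sum of 152 FPKM at 6 months and 1561 FPKM at 12 months (0.0292% and 0.276% of the summed FPKM). One of them, Retnlg, was 0.302 FPKM at 6 months and passed the minimum at 12 months alone, so its direction was fixed. The sum was 2687 FPKM in AD at 9 months, 388 FPKM in WT at 12 months and 17.9 to 132 FPKM in the other groups except AD at 6 months. S100a9, a calcium-binding protein of neutrophils, was 62.3 FPKM at 6 months, 1283 at 9 and 648 at 12. Ngp, Camp, S100a8, S100a9, Chil3, Lcn2 and Wfdc21, all known from neutrophils or their precursors, were among the 15 highest genes by fold change. Neutrophils carry high CD45, and the sort took cells of low to intermediate CD45.

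All 5 choroid plexus markers were lower, with a sum of 4859 FPKM at 6 months and 960 FPKM at 12 months (0.930% and 0.170% of the summed FPKM). Kl and Clic6 passed the minimum at 6 months alone, so their direction was fixed. Ttr, the thyroid hormone carrier that choroid plexus epithelium secretes, was 1155, 5389, 4836, 190 and 954 FPKM in AD microglia of 2, 4, 6, 9 and 12 months. In WT it was 3334 FPKM at 6 months and 8.86 FPKM at 12 months. Enpp2 (171 and 38.5 FPKM), Igfbp2 and Sostdc1, all of which the choroid plexus expresses, were among the 15 lowest genes, and Igf2, a growth factor of the same tissue, was 4.99 and 0.846 FPKM. The 3 erythroid markers were lower as well, with sums of 119.8 and 58.5 FPKM. Monocyte markers summed to 4.64 and 8.12 FPKM and B cell markers to 37.8 and 23.8 FPKM, while neuron, T cell and oligodendrocyte precursor markers summed to under 1 FPKM at both ages. The part of other cells in the list counts was not tested.

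AD astrocytes of the same ages were sorted from the same model. There 4 of 26 DAM genes were higher (median 0.16), 1 of 5 class II genes, 2 of 22 interferon genes and 3 of 10 chemokines, where 6.17% of all genes were higher. Apoe, which astrocytes also make, was 6291 FPKM at 6 months and 7090 FPKM at 12 months (log2 fold change 0.14). C4b, a complement component of reactive astrocytes, was 9.23 and 55.2 FPKM in astrocytes (2.53) and 0.191 and 0.595 FPKM in microglia (1.26). The difference between the cell types was not tested.

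**Figure D5:**
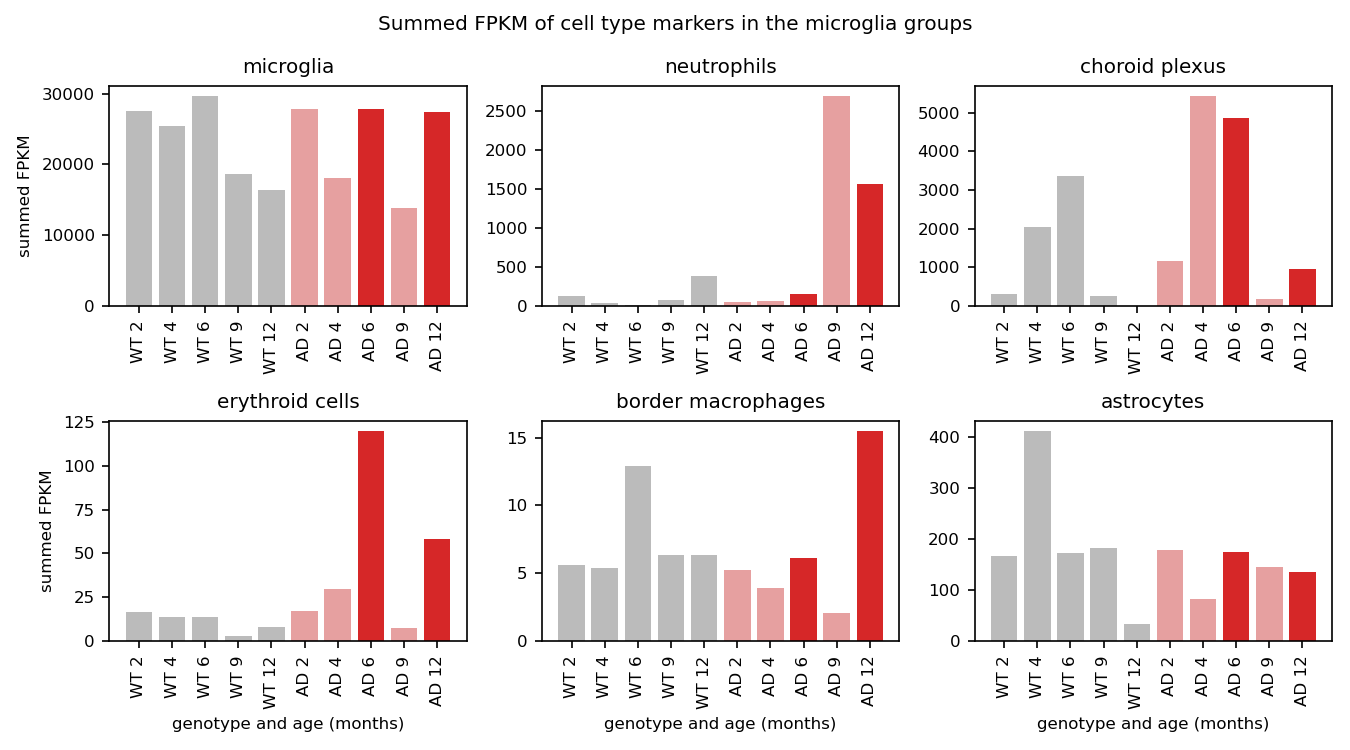
Summed FPKM of the markers of 6 cell types (bars, linear axes from 0) in the 10 microglia groups, WT in grey and AD in red, with AD of 6 and 12 months in dark red. The microglia sums of these 2 groups are 27818 and 27434 FPKM, neutrophil markers are highest in AD at 9 and 12 months, and choroid plexus markers are 4859 FPKM at 6 months and 960 FPKM at 12 months.

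Genes outside these lists made up the rest of the extremes. Cxcl13, a B cell attracting chemokine, had the highest fold change among genes of at least 5 FPKM, listed at 0 at 2 months and standing at 0.946, 1.41 and 24.7 FPKM in AD microglia of 6, 9 and 12 months (log2 fold change 4.57). Hpse, the heparan sulfate cleaving enzyme heparanase, was 0.588, 1.98 and 6.16 FPKM at 6, 9 and 12 months (3.19) and under 0.1 FPKM in every WT group. Rpl21, Rpl26 (6.03 FPKM at 6 months) and the ribosomal pseudogenes Rps2-ps10, Rpl21-ps8 and Gm9825 were also among the 15 highest, but near-identical copies of these genes can share reads, so their values are uncertain. All 5 were higher at 12 months in AD astrocytes too, with log2 fold changes from 2.44 (Rpl21) to 3.71 (Rps2-ps10). Gapdh, at 8.36 and 1.67 FPKM, has many processed pseudogenes and is uncertain for the same reason. Of 44 other cytosolic ribosomal protein genes, 5 were higher and none lower, close to the share of all genes that were higher (10.6%). Small differences to the same side were common among them, as 43 of the 44 were above 0 (median 0.38). Among the lowest genes, Fcrl1, an Fc receptor-like protein known from B cells, was 13.6 FPKM at 6 months and 3.59 FPKM at 12 months (-1.89).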

How the data were processed

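Microglia and astrocytes were sorted from brains of AD and WT mice and sequenced. The authors aligned and counted reads per gene and deposited FPKM, 1 value per gene and group, taken here as a mean over a group's libraries. Each column was matched to its group by its name. The paper's methods name HISAT2 and featureCounts, while the submitters' processing notes name Bowtie 0.12.2 and the build mm8, so no positions are given on the build of the files. A total of 60 libraries are labelled. Counts per library were not analysed here.

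Size factors by the median of ratios over the 10 microglia groups scaled FPKM (astrocytes likewise), 0.1 was added and values were put on a log2 scale. The minimum was 0.5 FPKM in either group, and the threshold was 0.5 on the log2 scale. The study's own rule adds an adjusted p-value, which needs values per library. The calculation of fold changes and calls was tested on simulated data.

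The genes and lists were chosen with earlier results of these data known. Named genes are the 15 highest and 15 lowest by fold change with at least 5 FPKM, in each list the 4 with the largest fold change of at least 2 FPKM and the most abundant one, check genes, and the 10 most abundant genes. Other genes, and the Y box, were chosen after their values or promoters were seen. Some genes named by this rule are not reported here. Of the listed genes, 1 had no match in the table. Promoters are RefSeq windows on GRCm38.p6, and no window was printed for Cd74.

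Alternatives, each changed alone, were FPKM without size factors, quantile normalization, size factors from the 2 groups alone, a pseudocount of 1, no filter, at least 1 FPKM in both groups, removal of a trend of degree 3 in gene length, and a threshold of 1. Python 3.11.15, NumPy 2.4.6, pandas 2.3.3 and Matplotlib 3.10.9 were used.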

Additional observations from a re-analysis of the deposited data

How the results depend on the processing

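The counts of 1421 higher and 782 lower genes depended on the treatment of low values. A pseudocount of 1 gave 832 higher and 347 lower, no filter gave 3330 and 2474 of 35999 genes, a minimum of 1 FPKM in both groups gave 658 and 288 of 10462, and a threshold of 1 gave 564 and 282. FPKM without size factors, quantile normalization, size factors from the 2 groups alone and removal of a length trend kept both counts within 1.5 times. At least 1 FPKM in both groups left 3 lower choroid plexus markers. A threshold of 1 left 12 higher interferon genes, 8 higher chemokines and 1 lower homeostatic gene. No fold change past the threshold among the 240 named genes turned direction under any alternative that gave it a value, and signs turned only among values inside the threshold. Quantile normalization took 19 named genes back inside the threshold (among them Tyrobp, B2m, Ctsb and Ftl1), a pseudocount of 1 took 8, the length trend 4 and the size factors from the 2 groups alone 1. No paired analysis was possible because each group has 1 value and the columns carry no replicate number. Leaving out each replicate was not run for the same reason. Depth limits values under 0.5 FPKM, which rest on few fragments.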

Other observations

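Several receptors and secreted proteins outside the lists were higher at 12 months and were chosen after their values were seen. Pdcd1, the inhibitory receptor PD-1 best known from T cells, was 12.3, 5.63, 13.3, 20.7 and 59.7 FPKM in AD microglia of 2, 4, 6, 9 and 12 months (log2 fold change 2.16 for 12 against 6), while the 7 T and NK cell markers summed to 0.241 FPKM at 6 months and 0.475 FPKM at 12 months. In WT microglia Pdcd1 was highest at 6 months, with 32.3 FPKM. Crlf2, the receptor of thymic stromal lymphopoietin, was 8.88 FPKM at 6 months and 40.3 FPKM at 12 months in AD and 4.46 and 15.2 FPKM in WT, so it was higher at 12 months in both genotypes (2.17 and 1.68). Hcar2, the niacin receptor, was 15.1 and 49.5 FPKM (1.71). Dcstamp, a membrane protein needed for the fusion of osteoclasts, was 3.22 FPKM at 9 months and 8.48 FPKM at 12 months (2.72 for 12 against 6), and at most 0.12 FPKM in every WT group. Wfdc17, a secreted protein of macrophages, was 19.5 and 70.6 FPKM (1.86), and Anxa5, which binds phosphatidylserine, 39.5 and 85.1 FPKM (1.11).

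Other lists held single genes of note. Among 16 clock genes, 5 were higher and none lower, where 10.6% of all genes were higher. Bhlhe40, a repressor that is also on the list of microglial transcription factors, was 0.585 FPKM at 6 months and 2.52 FPKM at 12 months (log2 fold change 1.94). Of 22 such transcription factors, 2 were higher, Bhlhe40 and Bhlhe41, about the share of all genes (10.6%), and Bhlhe41 was within the threshold after quantile normalization (0.47) and with a pseudocount of 1 (0.48). Of 19 growth factors, 6 were higher and 2 lower, where 10.6% and 5.85% of all genes were. Gdf15, a stress-induced cytokine, was 3.07 and 11.6 FPKM in AD (1.89) and 5.43 and 11.4 FPKM in WT. Among 19 Fc receptors and Siglecs, 4 were higher and 3 lower, beside the same shares of all genes (10.6% and 5.85%). The 4 include 2 that passed the minimum at 12 months alone. Siglecf was 18.5 and 38.7 FPKM (1.06) and Siglece 49.9 and 32.6 FPKM (-0.61). Tsc22d3, a glucocorticoid target also called Gilz, was lower, at 92.4 FPKM at 6 months and 62.9 FPKM at 12 months (-0.55). Lst1, a small transmembrane protein of leukocytes, was 492 and 305 FPKM in AD and 617 and 210 FPKM in WT (-0.69 and -1.62).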
